A study of Mus musculus with 6 samples.

Results

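Translation initiation and elongation factors are the proteins that load an mRNA onto the ribosome, find its start codon and move the ribosome along the message. Their genes were taken as all probe sets of the array whose single gene symbol begins with Eif1 to Eif6 or with Eef1 or Eef2, without the eIF2 kinases (Eif2ak) and the eIF4E-binding proteins (Eif4ebp). This gave 101 of 22626 probe sets, for 46 of 12393 genes. Symbols alone decided which probe sets entered, though the rule was set with earlier results of these data known.

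The samples were myotubes of C2C12, a mouse muscle precursor cell line that forms multinucleate, contractile fibres once serum is reduced. Cells grown in 20% fetal bovine serum were differentiated with 2% horse serum over 5 days. They then received 500 µM palmitate, a saturated fatty acid supplied bound to fatty acid-free bovine serum albumin (BSA), or 1% BSA alone, for 16 h. There were 3 arrays per group (Affymetrix mouse 430A 2.0), and both groups share the cell line and the differentiation. Both received albumin, with its percentage given for the BSA group only. C2C12 is a single line, and the labels number the replicates without naming separate cultures. The p-values therefore measure only how far these samples spread, and that spread may be technical. In such bulk RNA, fewer cells of a type and less RNA per cell cannot be told apart.

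Initiation starts when the GTPase eIF2 brings the initiator tRNA to the small ribosomal subunit together with eIF1, eIF1A, eIF3 and eIF5. The eIF4 factors bind the mRNA cap and unwind the leader, so that the complex can scan to the start codon. eIF2B recharges eIF2 with GTP, and this step is blocked when stress kinases such as PERK phosphorylate eIF2. In muscle, as elsewhere, eIF4E is held back by its binding proteins until mTOR phosphorylates them. eEF1A then delivers each aminoacyl-tRNA, and eEF2 moves the ribosome on.

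Each value is a signal on a linear scale, 1 per probe set and array, and the brightest probe set of a gene (by mean log2 signal) stands for it. A probe set was tested when its mean log2 signal lay above the 40th percentile, which is a signal of 267.1. Values written with ± are log2 fold changes of palmitate over BSA with the SE that limma gave for 3 arrays in each group, and "rose" or "fell" means a limma adjusted p under 0.05 over all 13575 probe sets tested. Signals are not compared between probe sets, since each binds its target differently.

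Log2 signals correlated at 0.943 to 0.959 within a group and at 0.883 to 0.91 between groups. The arrays had been scaled to equal average signal. All 12 muscle markers examined (among them Myog, Acta1 and Myh3) lay above the filter, and 0 rose while Myod1 (-1.33 ± 0.16) and Atp2a1 (-0.60 ± 0.18) fell. Of 2 markers of undifferentiated myoblasts, Pax7 lay under the filter and Myf5 above it. Myf5 had mean signals of 2351 with BSA and 1962 with palmitate and did not pass (-0.24 ± 0.28). Of the markers of other cells, 0 of 2 adipocyte and 0 of 3 endothelial genes lay above the filter. Csf1r and Adgre1, 2 of 4 macrophage markers, did so, and neither passed the test. The summed signal of the 4 macrophage markers was 853.1 to 1224 with BSA and 1320 to 1649 with palmitate, and Ptprc, which defines blood cells, was at 88.8 and 103.2 on average. The part of these markers in the results was not tested.

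Of the 46 factor genes, 43 were tested. Palmitate-treated myotubes had higher transcripts of 7 of them (16.3%, against 7.92% of all genes) and lower transcripts of 3 (6.98%, against 12.3% of all genes). The 7 that rose were Eef1e1, Eif5, Eif1a, Eif4e, Eif4a1, Eif6 and Eif2s2, and the 3 that fell were Eif2d, Eif4e3 and Eef1akmt1. Together 10 of 43 passed (23.3%), close to the 20.2% of 7931 genes tested. The median over the 43 was 0.13, and over all genes tested it was -0.051. Counted by probe set, 15 of 90 were higher (16.7%, against 8.63%) and 4 lower (4.44%, against 10.6%), in all 21.1% against 19.2%. For 18 of the 43 genes the groups did not overlap, 12 with all palmitate arrays above and 6 with all below. Over all genes tested 38.3% did not overlap, 15.9% above and 22.4% below.

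**Figure D1:**
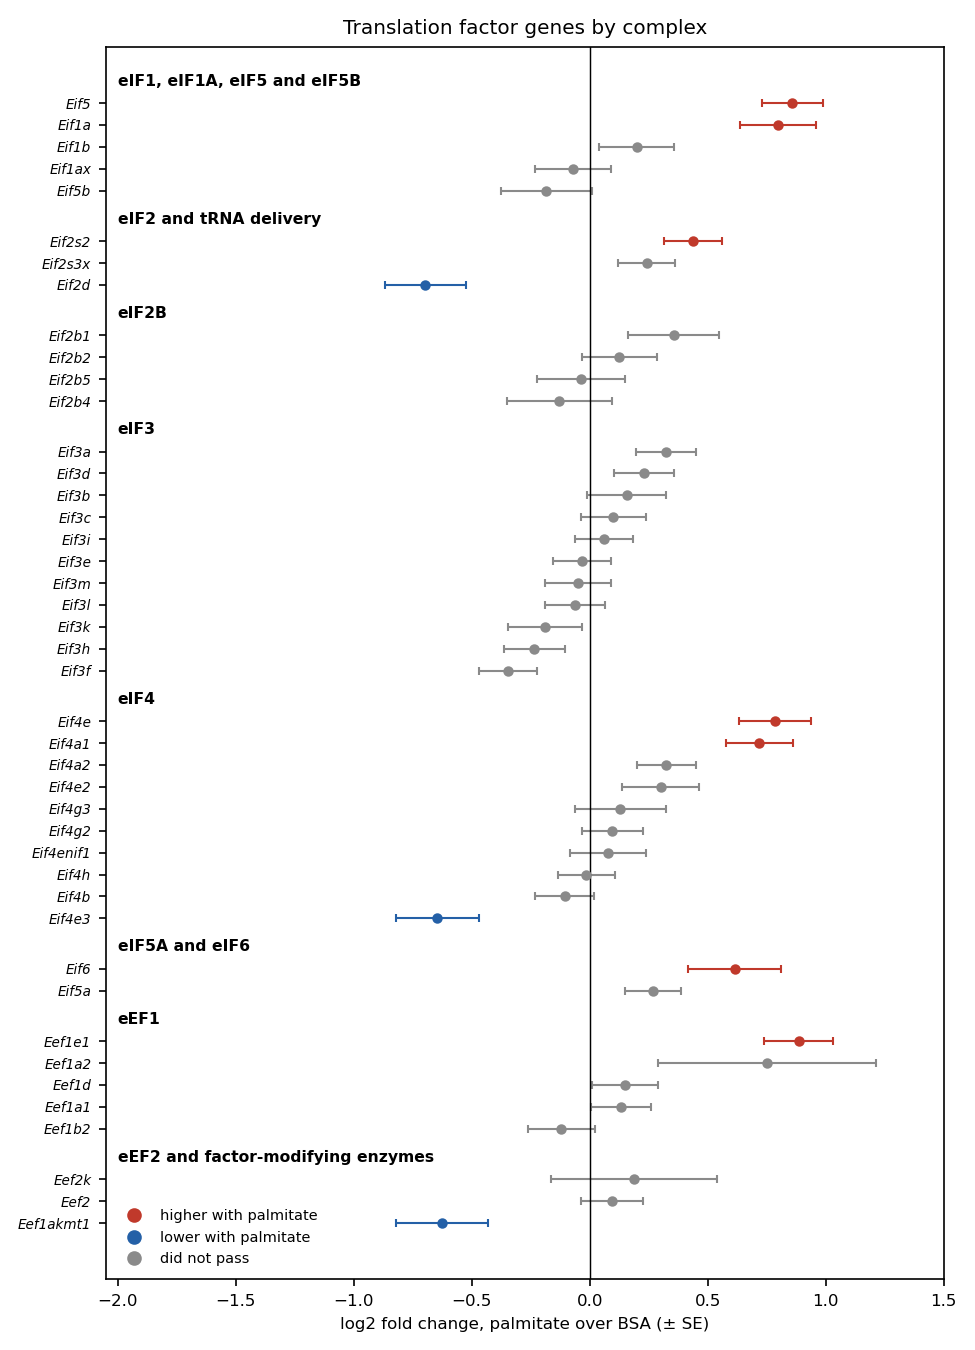
Log2 fold change (palmitate over BSA, ± SE, n = 3 arrays per group) of the 43 tested factor genes, 1 point per gene, grouped by complex. Red points rose and blue points fell; all 11 eIF3 genes are grey, lying between -0.35 and 0.32, while the genes that passed are spread over 6 of the 8 groups.

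How the arrays are scaled bears on this balance. The 9 hybridisation control probe sets detect labelled RNAs added with the hybridisation mix, so they do not measure RNA per cell or per sample. They were brighter by 0.33 (log2) on the palmitate arrays (exact permutation p = 0.1, two-sided, the smallest that 3 arrays against 3 allow). An older design of the same controls, also 9 probe sets, gave 0.26. Scaled to the former, the median of all genes was -0.38 and that of the factors -0.21, with 2 factor genes higher (Eef1e1 and Eif5) and 5 lower (the same 3, with Eif3f and Eif3h). Eif1a, Eif4e, Eif4a1, Eif6 and Eif2s2 kept positive values there but did not pass. On leaving out 1 array, the count of 3 falls went to 0 without BSA replicate 2 or BSA replicate 3 and to 1 without palmitate replicate 2. Calls over all probe sets also became fewer, at 1579 to 2315 against 2609. The values themselves stayed negative, at -0.74 to -0.66 for Eif2d, -0.72 to -0.56 for Eif4e3 and -0.76 to -0.50 for Eef1akmt1. The count of rises was 5 to 6 on leaving out 1 array.

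Among the factors for scanning and start codon recognition, Eif5 and Eif1a rose. Eif5 encodes the GTPase-activating protein that makes eIF2 release the initiator tRNA at the start codon. Its brightest probe set read 8145, 9683 and 9654 on the BSA arrays and 17126, 16074 and 16500.1 on the palmitate arrays. Every palmitate array lay above every BSA array, by 1.81-fold on average (0.86 ± 0.13, limma adjusted p = 0.000765). All 4 of its probe sets rose, by 0.52 ± 0.14 to 1.06 ± 0.14. Eif5 passed under each alternative run, with hybridisation control scaling giving the lowest value (0.53, adjusted p = 0.0279).

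Eif1a encodes eIF1A, which helps the small subunit to scan. It read 3696, 4496 and 5018 with BSA and 8598, 7411 and 6873 with palmitate, again with no overlap (0.80 ± 0.16, adjusted p = 0.00493). A second probe set, of a type whose probes may match related transcripts, gave the same size with more spread and missed the threshold (0.80 ± 0.26, adjusted p = 0.0545). Another, whose annotation joins Eif1a to other symbols, lay outside the rule. It overlapped between the groups and did not pass (-0.12 ± 0.32, adjusted p = 0.836). The X-linked relative of Eif1a, Eif1ax, encodes nearly the same protein and did not pass, at -0.072 ± 0.16. Its arrays ran from 6679 to 8334 with BSA and from 6034 to 8400 with palmitate, so the groups overlapped. The log2 ratio of Eif1a to Eif1ax was higher on all palmitate arrays, by 0.87 (95% interval 0.36 to 1.38, from the pooled SD), with an exact permutation p = 0.1 and adjusted p = 0.167 over the 5 pairs of related genes compared. Eif1b (0.20 ± 0.16) and Eif5b, the GTPase that joins the subunits (-0.18 ± 0.19), did not pass. The probe sets of Eif5b disagreed in sign. A dimmer one was at 0.52 ± 0.20 (adjusted p = 0.0958), with all palmitate arrays above the BSA arrays. Its dimmest was at -0.049 ± 0.36, and neither passed. In all, 2 of the 5 genes of this group rose (40%, against 7.92% of all genes) and 0 fell (against 12.3%). The median was 0.20, and a group of 5 genes gives only a rough share.

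**Figure D2:**
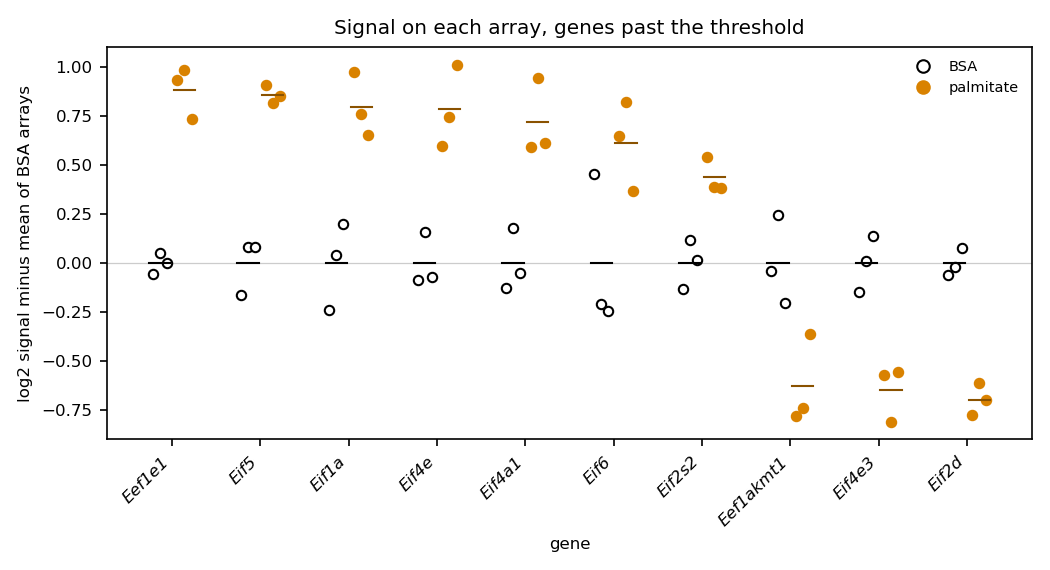
Log2 signal on each array minus the mean of the BSA arrays, for the 10 factor genes that passed, with open points for 3 BSA arrays, filled points for 3 palmitate arrays and bars for group means. The groups overlap for Eif6 alone, where BSA replicate 1 lies above palmitate replicate 3; the other 9 genes separate fully.

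The eIF2 complex that carries the initiator tRNA was represented by its beta and gamma subunits. Eif2s2, the beta subunit, rose from 19203, 22850 and 21268 to 30649, 27570 and 27456 (0.44 ± 0.12, adjusted p = 0.0265). The groups did not overlap, yet the call was lost without BSA replicate 1, BSA replicate 3, palmitate replicate 1 or palmitate replicate 3, at adjusted p up to 0.112. It was also lost under hybridisation control scaling (0.10, adjusted p = 0.665), with averaged probe sets (0.37, adjusted p = 0.0985) and, at the same size, with no filter, no intensity trend or the replicate block (adjusted p = 0.0743 to 0.108). Of its 6 probe sets, 3 rose (0.44 to 0.65) and 3 did not pass (-0.12 to 0.39).

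Eif2s3x, the gamma subunit that binds GTP, did not pass on its brightest probe set (0.24 ± 0.12, adjusted p = 0.193). That probe set read 10391, 11201 and 11110 with BSA and 12842, 12936 and 12860 with palmitate, so every palmitate array was above every BSA array. The other 2 probe sets rose, by 0.42 ± 0.12 (adjusted p = 0.0349) and by 0.99 ± 0.16 (adjusted p = 0.00144). With its probe sets averaged the gene passed at 0.55 (adjusted p = 0.00802), and after hybridisation control scaling it was at -0.092. Its Y-linked copy Eif2s3y lay under the filter, with mean signals of 16.1 and 44.3.

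Eif2d encodes a factor that can place initiator tRNA without eIF2 and that takes part in ribosome recycling. It fell 1.62-fold, from 1956, 2013 and 2149 to 1191, 1331 and 1254, with clear separation of the groups (-0.70 ± 0.17, adjusted p = 0.0141). Its other 2 tested probe sets were dimmer and did not pass (-0.23 ± 0.25 and -0.17 ± 0.48). The call ended without BSA replicate 2 (adjusted p = 0.0511) or BSA replicate 3 (adjusted p = 0.0567) and with its probe sets averaged (-0.54, adjusted p = 0.164).

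Of 4 measured subunits of eIF2B, the exchange factor that reloads eIF2, 0 passed, against 20.2% of all genes. The values of these 4 subunits ran from -0.13 to 0.36, with a median of 0.044. The highest was Eif2b1, the alpha subunit (0.36 ± 0.19, adjusted p = 0.226), whose palmitate arrays all lay above the BSA arrays.

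eIF3 is the large scaffold of the initiation complex. Of the 11 subunits taken by the rule, 0 passed, against 20.2% of all genes. The rule left out probe sets of a further pair of eIF3 genes, which rose and are given below. The median was -0.033, with 5 subunits above 0 and 6 below. Eif3a, the largest subunit, had the highest value (0.32 ± 0.13, adjusted p = 0.102). It read 12229, 13737 and 13368 with BSA and 17373, 14760 and 17117 with palmitate, without overlap, and its 4 probe sets lay between 0.30 and 0.63 with 0 past the threshold. Eif3d, a subunit that can itself contact the cap, was at 0.23 ± 0.13. At the other end, Eif3f read 19115, 17873 and 16701 with BSA and 14735, 14053 and 13437 with palmitate, so its palmitate arrays all lay lower (-0.35 ± 0.12, adjusted p = 0.0694). Eif3f is known in muscle as a target of the atrophy ligase MAFbx. It passed with quantile normalization (-0.38, adjusted p = 0.0313) and after hybridisation control scaling (-0.68, adjusted p = 0.00584). Eif3h (-0.23 ± 0.13) passed after hybridisation control scaling (-0.57, adjusted p = 0.0172).

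A further 6 probe sets, whose annotation joins a factor symbol to other symbols, were left out by the rule. Apart from the one of Eif1a given above, they are not named. Of them 3 rose, all assigned to 1 pair of eIF3 genes (0.85 ± 0.18, 0.61 ± 0.18 and 0.56 ± 0.16), and the other 3 did not pass.

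The eIF4 group binds the cap and opens the leader of the mRNA. Of its 10 genes, 2 rose (20%, against 7.92% of all genes) and 1 fell (10%, against 12.3%). The median was 0.11. Eif4e, the cap-binding protein on which mTOR signalling converges, read 5369, 6368 and 5424 with BSA and 8626, 9562 and 11501 with palmitate. It was 1.72-fold higher with no overlap (0.78 ± 0.15, adjusted p = 0.00389). A dimmer probe set of Eif4e overlapped between the groups and did not pass (0.23 ± 0.20). Averaging with it and with a probe set under the filter brought the gene to 0.037 (adjusted p = 0.95).

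Eif4e3 encodes an atypical member of the same cap-binding family and went the other way. It read 2075, 2315 and 2527 with BSA and 1547, 1312 and 1562 with palmitate, 1.56-fold lower (-0.65 ± 0.17, adjusted p = 0.0227). A second probe set also fell (-1.17 ± 0.24, adjusted p = 0.00549). The call of the brightest was lost without BSA replicate 2, BSA replicate 3 or palmitate replicate 2 (adjusted p up to 0.0902), and with the replicate number as a block (adjusted p = 0.0603). Between the related genes, the log2 ratio of Eif4e to Eif4e3 was higher with palmitate on all 3 arrays, by 1.43 (95% interval 0.96 to 1.90, exact permutation p = 0.1, adjusted p = 0.167). Eif4e2, a cap-binding protein that acts mainly in repression, did not pass (0.30 ± 0.16). Its difference from Eif4e was 0.48, with an interval of -0.13 to 1.10 that includes 0 (exact permutation p = 0.2, adjusted p = 0.25).

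**Figure D3:**
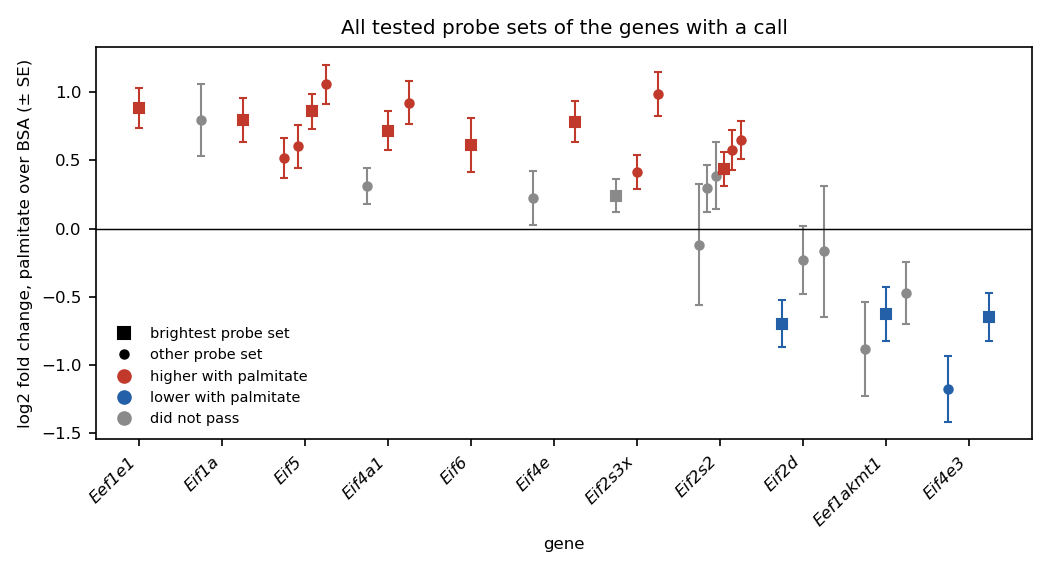
Log2 fold change (palmitate over BSA, ± SE) of each tested probe set of the 11 genes with a call on any of them, with squares for the brightest probe set of a gene and circles for the others. All 4 probe sets of Eif5 and both of Eif4e3 passed, while in 7 other genes at least 1 probe set did not; no gene holds calls in both directions.

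Eif4a1 encodes the main RNA helicase of initiation. It rose 1.65-fold, from 13716, 16969 and 14468 to 22635, 28882 and 22948, without overlap (0.72 ± 0.14, adjusted p = 0.00438). A second probe set rose by 0.92 ± 0.16 and the other did not pass (0.31 ± 0.13, adjusted p = 0.121). Eif4a2, the paralog that is prominent in muscle and brain, was at 0.32 ± 0.13 (adjusted p = 0.0939), with 15729 to 19629 on the BSA arrays and 21535 to 22417 on the palmitate arrays. The 2 genes differed by 0.39 in log2 change (95% interval 0.014 to 0.77, exact permutation p = 0.1, adjusted p = 0.167). The cofactors that stimulate the helicase had values near 0, at -0.11 ± 0.12 for Eif4b and -0.014 ± 0.12 for Eif4h. Eif4g2, a scaffold that lacks the eIF4E-binding site, was at 0.096 ± 0.13, and the remaining eIF4 genes, Eif4g3 and the eIF4E transporter Eif4enif1, also did not pass.

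The promoter of Eif4a1 and those of Eif5 and Eef2 are shown because they stand for a rise with an E-box, a rise without one and a level that did not pass with one. The sequences are RefSeq's for GRCm38.p6 and run 5′ to 3′ over the 250 bases before the annotated start, with CACGTG, the E-box read by MYC and related factors, in capitals. They lie at chr11:69672424-69672673 (minus strand, Eif4a1), chr12:111537851-111538100 (plus strand, Eif5) and chr10:81176381-81176630 (plus strand, Eef2).
Eif4a1: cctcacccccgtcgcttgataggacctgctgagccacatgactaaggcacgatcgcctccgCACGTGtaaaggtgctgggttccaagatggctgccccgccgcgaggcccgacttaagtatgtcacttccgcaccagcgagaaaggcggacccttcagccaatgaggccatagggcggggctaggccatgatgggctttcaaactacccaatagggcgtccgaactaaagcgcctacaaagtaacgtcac
Eif5: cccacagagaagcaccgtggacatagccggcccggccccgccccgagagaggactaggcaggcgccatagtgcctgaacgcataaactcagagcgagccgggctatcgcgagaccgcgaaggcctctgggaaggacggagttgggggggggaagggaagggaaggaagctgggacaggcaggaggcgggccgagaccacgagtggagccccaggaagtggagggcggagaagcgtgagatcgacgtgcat
Eef2: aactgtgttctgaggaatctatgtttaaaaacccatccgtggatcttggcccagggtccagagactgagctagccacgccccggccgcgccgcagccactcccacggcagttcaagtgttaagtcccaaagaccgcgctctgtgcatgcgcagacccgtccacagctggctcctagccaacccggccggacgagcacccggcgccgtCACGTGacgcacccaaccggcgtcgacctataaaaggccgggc

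RefSeq windows of 250 bases before to 50 after the start were matched for 37 of the 46 genes by gene ID. CACGTG, which reads the same on both strands, occurred in a window of 11 of the 37 (29.7%). The share was 12.4% of 6463 tested genes with a window and 8.09% of all 27025 genes with one. Genes may have several windows, and the 11 include Eef1aknmt, which was not tested. CACGTG was present in 2 of the 5 genes that rose and had a window (Eif4a1 and Eif4e). Eif1a and Eif6 also rose but had no matched window. Of the genes that fell only 1, Eif2d, had a window, without the motif. Among genes tested that did not pass, 8 of 28 held it, including Eef2, Eif5a, Eif3f and Eif4h. The core of the CEBP-ATF response element, TGATGNAA on either strand, occurred in 2 of the 37 (5.41%, against 2.65% of tested genes), Eif2s3x and Eef2k. It occurred in 0 of the 5 that rose and had a window. The 2 motifs overlapped in 0 member windows. A match describes these letters and is not a site. Stretches of 30 bases around matches are shown for Eif4e, which holds 2 E-boxes before the second of its annotated starts, 1077 bases after the first, for Eif3f, whose value was negative, and for the response element core in Eif2s3x, with the matched letters in capitals.
Eif4e, chr3:138527028-138527057, plus strand: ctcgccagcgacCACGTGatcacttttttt
Eif4e, chr3:138527192-138527221, plus strand: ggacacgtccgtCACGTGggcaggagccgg
Eif3f, chr7:108934335-108934364, plus strand: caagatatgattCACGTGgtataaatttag
Eif2s3x, chrX:94212729-94212758, minus strand: ttcgccatcatTTTCATCAggtctatgccg

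Eif6 keeps the large ribosomal subunit from joining too early and is needed for its maturation. It rose from 8559, 5411 and 5278 to 9818, 11064 and 8084 (0.61 ± 0.20, adjusted p = 0.0473). BSA replicate 1 lay above palmitate replicate 3, so the groups overlapped. The call was lost without BSA replicate 2, BSA replicate 3, palmitate replicate 1 or palmitate replicate 2, at adjusted p up to 0.174, and under hybridisation control scaling (0.28, adjusted p = 0.382). Quantile normalization, no filter, no intensity trend and the replicate block also ended it (adjusted p = 0.053 to 0.126). Eif5a, which helps the ribosome past difficult peptide bonds and carries the hypusine modification, was at 0.27 ± 0.12 (adjusted p = 0.14), with all palmitate arrays above the BSA arrays.

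Of the elongation factors proper, 0 passed, against 20.2% of all genes. Eef1a1, the widely expressed eEF1A, read 67300.2, 78348.5 and 62933 with BSA and 81338, 66714.5 and 80567.5 with palmitate, so the groups overlapped (0.13 ± 0.13, adjusted p = 0.511). Eef1a2, the isoform that takes over in mature muscle, read 166, 374 and 484 with BSA and 496, 838 and 343 with palmitate. These overlap, and its value of 0.75 ± 0.46 did not pass (adjusted p = 0.289). The difference between the isoforms was -0.62 with a wide interval of -2.45 to 1.22 (exact permutation p = 0.5). The exchange factor subunits Eef1b2 (-0.12 ± 0.14) and Eef1d (0.15 ± 0.14), and the translocase Eef2 (0.094 ± 0.13), did not pass either. Eef2k, the kinase that inhibits eEF2, was dim and at 0.19 ± 0.35.

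Eef1e1 had the largest rise among the factor genes by brightest probe set. Despite its symbol it encodes an auxiliary subunit of the multi-aminoacyl-tRNA synthetase complex. It read 3141, 3381 and 3258 with BSA and 6229, 6456 and 5422 with palmitate, 1.85-fold higher with no overlap (0.89 ± 0.14, adjusted p = 0.00132). It passed under each alternative run, with hybridisation control scaling giving 0.55 (adjusted p = 0.0474). Eef1akmt1, a methyltransferase known in human cells to modify eEF1A, fell 1.54-fold, from 2114, 2573 and 1884 to 1265, 1303 and 1690. Its groups did not overlap (-0.63 ± 0.20, adjusted p = 0.0421), but the call held without palmitate replicate 3 only, and leaving out any other array gave adjusted p up to 0.173. Its other 2 tested probe sets did not pass (-0.47 ± 0.23 and -0.88 ± 0.34), with all palmitate arrays below. With a probe set under the filter averaged in, the gene was at -0.14 (adjusted p = 0.812). Median, 75th percentile and quantile scaling, no filter, no intensity trend and the replicate block also ended the call (adjusted p = 0.0546 to 0.0871). The other factor-modifying enzymes, Eef1aknmt and Eef2kmt, lay under the filter.

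Genes around the factors were taken from a list of 46 regulators and partners, of which 39 were measured. Of these 8 rose (20.5%) and 0 fell, against 7.92% and 12.3% of all genes, with 0.16 as their median. Because the list was drawn up with earlier results of these data known, these shares only describe it. Scaled to the hybridisation controls, 4 were higher (Ppp1r15a, Atf4, Denr and Ddit4) and 5 lower, and the median was -0.18. The count of 8 went to 6 without palmitate replicate 3 and to 5 without any other single array. PERK, encoded by Eif2ak3, phosphorylates eIF2 during stress of the endoplasmic reticulum, and it was at 854, 1179 and 1169 with BSA and 1672, 1503 and 1701 with palmitate. It rose by 0.62 ± 0.20 (adjusted p = 0.0477), but the call was lost on leaving out any single array, at adjusted p up to 0.13, and under hybridisation control scaling (0.29, adjusted p = 0.404). No filter, no intensity trend and the replicate block also ended the call of Eif2ak3. Ppp1r15a (GADD34), the subunit that targets a phosphatase to eIF2, rose from 3926, 3158 and 2844 to 7568, 11506 and 9020 (1.49 ± 0.18, adjusted p = 0.000195). Its constitutive relative Ppp1r15b was at 0.085 ± 0.15, and Eif2ak4, the kinase that senses lack of amino acids, at -0.086 ± 0.31. Atf4, whose mRNA is translated when eIF2 is phosphorylated, rose by 0.97 ± 0.13 (adjusted p = 0.000407).

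**Figure D4:**
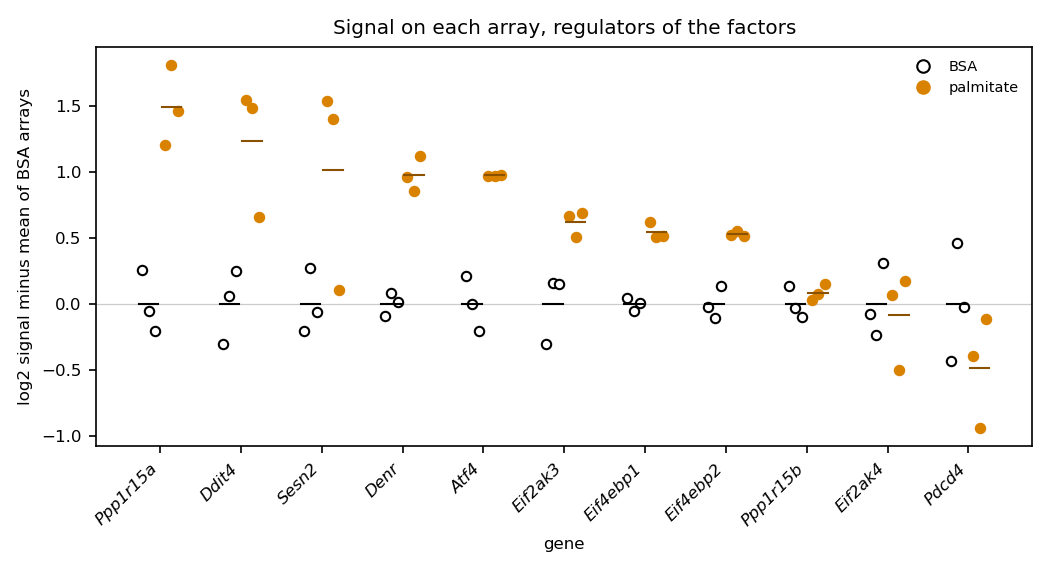
Log2 signal on each array minus the mean of the BSA arrays, for 11 genes that regulate or assist the factors, with open points for 3 BSA arrays, filled points for 3 palmitate arrays and bars for group means. Of the 8 genes that rose, Sesn2 alone overlaps between groups, through palmitate replicate 3; Ppp1r15b, Eif2ak4 and Pdcd4 overlap and did not pass.

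Denr forms with Mcts1 a factor related to eIF2D in structure and role. Denr read 5907, 6676 and 6381 with BSA and 12300, 11412 and 13704 with palmitate, rising by 0.98 ± 0.13 (adjusted p = 0.00045), while Eif2d fell. Its partner Mcts1 had a negative value and did not pass (-0.29 ± 0.19, adjusted p = 0.303). After hybridisation control scaling Mcts1 passed as lower. The eIF4E-binding proteins, which compete with eIF4G for eIF4E, also rose. Eif4ebp1 went from 11064, 10323 and 10750.1 to 16438, 15191 and 15335 (0.55 ± 0.12, adjusted p = 0.00864), and Eif4ebp2 rose by 0.53 ± 0.16 (adjusted p = 0.0379). After hybridisation control scaling neither passed (0.21, adjusted p = 0.384, and 0.20, adjusted p = 0.545), and Eif4ebp2 lost its call on leaving out any single array (adjusted p up to 0.136). Its other 2 tested probe sets overlapped between the groups and did not pass (-0.070 ± 0.19 and 0.11 ± 0.29), and with probe sets averaged it did not pass either (0.62, adjusted p = 0.237). No intensity trend and the replicate block also ended the call of Eif4ebp2.

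Both stress-induced inhibitors of mTOR on the list rose. Ddit4 rose by 1.23 ± 0.25 (adjusted p = 0.00461) and Sesn2 by 1.02 ± 0.33 (adjusted p = 0.0481). Sesn2 read 994 on palmitate replicate 3, within the BSA range of 800 to 1112, against 2685 and 2433 on the other palmitate arrays. Leaving out that array gave 1.47 (adjusted p = 0.00171), and leaving out any other array ended the call, at adjusted p up to 0.166. It was also lost under hybridisation control scaling (0.68, adjusted p = 0.137), with no filter, with no intensity trend and with robust eBayes. A dimmer probe set of Sesn2 read 330 to 476 with BSA and 1120 to 1151 with palmitate, replicate 3 included, and rose by 1.49 ± 0.25 (adjusted p = 0.00138). Ppp1r15a, Atf4, Denr and Ddit4 passed under each alternative run. Pdcd4, which inhibits the helicase eIF4A, was at -0.49 ± 0.26 and did not pass (adjusted p = 0.213), although it passed after hybridisation control scaling (-0.82, adjusted p = 0.0164). The other genes on the list did not pass on their brightest probe set. Among these, a dimmer probe set rose for the release factor Etf1 (0.99 ± 0.16, adjusted p = 0.00149) and the helicase Ddx3x (0.65 ± 0.14, adjusted p = 0.00695). The same held for the recycling factor Abce1 (0.89 ± 0.24, adjusted p = 0.0234) and the eIF4E kinase Mknk2 (1.01 ± 0.28, adjusted p = 0.0232). These genes were chosen after their values were seen. On the brightest probe set, Etf1 (0.40 ± 0.14), Ddx3x (0.19 ± 0.16) and Abce1 (0.26 ± 0.13) had positive values. That of Mknk2 was negative (-0.31 ± 0.17, adjusted p = 0.231), and after hybridisation control scaling Mknk2 passed as lower.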

How the data were processed

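RNA of 6 samples (3 BSA, 3 palmitate) was measured on Affymetrix arrays. The authors deposited linear signal intensity values, computed by MAS 5 according to the notes on processing (per the submitters' processing notes), with settings not given in the sources used here. On every array the 2% trimmed mean was 1500.5 to 1500.56, so a shift of most transcripts in one direction is hidden. No detection call or scan date was used.

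Of 22690 probe sets, 64 controls were left out. The platform annotation gave 20380 of the rest 1 symbol, 691 several and 1555 none; the 46 factor genes all matched the RefSeq table of GRCm38.p6 by gene ID, with 0 symbols changed. Signals were log2 transformed with no offset and filtered at the 40th percentile of the mean, leaving 13575. Groups were compared by limma 3.58.1 in R 4.3.3 (lmFit, eBayes with trend), two-sided, Benjamini-Hochberg over 13575, threshold 0.05, with 4 residual and 7.98 prior degrees of freedom. The median SE was 0.22, and the number of arrays limits the precision. Pairs of related genes were compared by exact permutation over arrays. The fit was tested on simulated data.

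All members could be named. By the rule, array values are given for those past the threshold, and single values of others where they belong to a compared pair, have probe sets that disagree or are among the 10 smallest p; further members were given values, to complete a complex, after these were seen. Members, lists and tests were chosen with earlier results of these data known. Same-numbered arrays deviated with correlations of -0.23, -0.13 and 0.0091, so the numbers were not taken as pairs. Alternatives were 4 other scalings, 2 filters, an offset of 50, 2 eBayes settings, averaged probe sets, a replicate block and leaving out each array.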

Additional observations from a re-analysis of the deposited data

How the results depend on the processing

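Scaling to the hybridisation controls moved most values: 2 factor genes were higher and 5 lower, with medians of -0.21 over all factors, -0.18 for eEF1, -0.24 for eEF2 and modifying enzymes, -0.13 for eIF1, eIF1A, eIF5 and eIF5B, -0.092 for eIF2, -0.29 for eIF2B, -0.37 for eIF3, -0.22 for eIF4 and 0.11 for eIF5A and eIF6. By construction it lowers every log2 fold change by 0.33, so genes with small positive values changed sign, none of them past the threshold in either setting. These were Eef1a1 (-0.20), Eef1d (-0.18), Eef2 (-0.24), Eef2k (-0.15), Eif1b (-0.13), Eif2s3x (-0.092), Eif3a (-0.011), Eif3d (-0.10), Eif4a2 (-0.0085), Eif4e2 (-0.033), Eif4g2 (-0.24), Eif5a (-0.067), Eif2b2 (-0.21), Eif3b (-0.18), Eif3c (-0.23), Eif3i (-0.27), Eif4enif1 (-0.26), Eif4g3 (-0.20) and, of the regulators named with values, Ppp1r15b (-0.25). Averaging probe sets tests fewer features, with 1648 calls against 2609 and 1 factor gene lower. It moved the medians of eEF1 to 0.22 and of eIF2 to 0.37 and turned the signs of Eif4b (0.028), Eif5b (0.095), Eif3c (-0.016) and Eif3e (0.28), with 0 of these 4 past the threshold. The median of eIF2 was 0.34 with no filter, which adds Eif2s3y, and that of eEF2 and modifying enzymes was -0.27 with the stricter filter, which removes Eef2k. Eif4h was at 0.013 with median and 0.017 with 75th percentile scaling.

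With the replicate number as a block, 5 factor genes were higher and 1 lower, and 1973 probe sets passed; the numbers do not pair the samples by the check above. On leaving out 1 array, 0 to 3 factor genes were lower, 1579 to 2315 probe sets passed (1579 without BSA replicate 2), and the medians ran from 0.066 to 0.20 over all factors, 0.12 to 0.25 for eEF1 and 0.10 to 0.27 for eIF1, eIF1A, eIF5 and eIF5B. They changed sign for eIF2B (-0.034 to 0.17) and eIF3 (-0.088 to 0.042) and came near 0 for eEF2 and modifying enzymes (0.0020 to 0.21). Gene values, all uncalled, changed sign for Eif2b4 (-0.29 to 0.086), Eif2b5 (-0.13 to 0.076), Eif3e (-0.089 to 0.042), Eif3i (-0.011 to 0.10), Eif3m (-0.096 to 0.0015), Eif4g3 (-0.014 to 0.28), Eif4h (-0.047 to 0.038), Eef1b2 (-0.20 to 0.013), Eif1ax (-0.18 to 0.060) and Eif2ak4 (-0.22 to 0.12). Eef1e1 and Eif5 passed in all 17 alternatives. No detection calls were used, so dim probe sets such as those of Eef1a2 and Eef2k bound a fold poorly.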
